A study of Ipomoea batatas with 12 samples.

Results

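A set of 185 genes of sweetpotato (Ipomoea batatas) had lower counts in a mutant than in its parent line in both tissues of the storage root, the skin and the flesh, and lay outside the numbered block 12 of the gene identifiers. The 185 were picked from 225111 genes listed, by the counts themselves. The study compared the wild type line M1-125 (WT) with its natural mutant (MT), and by its title it was concerned with the colour of the storage root skin. Skin and flesh of each line were collected 120 days after planting under a treatment labelled normal, with 3 biological replicates, which gave 12 libraries in 4 groups: WT skin, MT skin, WT flesh and MT flesh. MT is a single natural mutant, so the libraries describe 1 mutant line against 1 parent. The sources used here do not give the mutated gene, nor whether different plants supplied the replicates. The p-values below therefore measure only the spread between these samples.

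Sweetpotato is a polyploid root crop, and each of its genes can be present as several nearly identical copies on the matching chromosomes of the different sets. The storage root is a swollen root whose flesh is mostly starch-storing parenchyma, while its skin is a thin corky outer layer, the periderm, which carries much of the visible pigment. Skin colour in this crop is known to follow mainly anthocyanins, the red and purple pigments of the flavonoid pathway, and flesh colour also carotenoids. None of the identifiers could be matched to a gene name here (0 found in the annotation table used), so no member is given a function and skin and flesh could not be checked against marker genes. Every identifier begins with Ibat.Brg_v3. and is printed without that start. It goes on with a number, a letter from A to F and a running number, read here as a chromosome, one of its copies and the order of the genes along it. That reading is an assumption, since no source used here explains it. Reads from near-identical copies may have been shared or dropped in counting, so values of single copies are uncertain.

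The members were chosen on measured values. Counts were divided by each library's total and multiplied by 1000000 (CPM), and a member had to have a WT mean at least 1.5 times the MT mean in skin and in flesh. All 3 MT libraries had to lie below all 3 WT libraries in each tissue. Both WT means had to reach 3 CPM, with more than 3 counts over the 3 MT skin libraries, and the number could not be 12. The size and the consistency of the difference between MT and WT, as well as the lack of overlap, are therefore set by the choice, are given as a description and support nothing. Of the 28098 genes outside 12 that met the conditions on level, 0.658% were members. Just inside the limit on the fold lay a member at 1.501 in flesh and another at 1.501 in skin, and just outside lay genes at 1.499 and 1.498. The lowest WT mean inside was 3.01 CPM, and the nearest gene below the floor had 2.996 CPM.

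The choice depended on the scaling of the libraries. With TMM-scaled library sizes, which correct for the make-up of the RNA, 107 genes met the same rule, 106 of them among the 185. The TMM factors ran from 0.904 to 0.923 in WT skin, 0.877 to 0.895 in MT skin, 1.15 to 1.16 in WT flesh and 1.07 to 1.08 in MT flesh. By contrast, genes meeting the mirrored rule (higher in MT in both tissues) numbered 195 by library totals and 249 by TMM. The median difference between MT and WT over all 28098 genes was -0.03 in skin and -0.12 in flesh on the log2 scale of CPM by library totals, while over the members it was -0.98 and -0.79. All 8 members with a WT over MT fold of at least 3 in both tissues, described below, also met the rule with TMM.

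The libraries held 9620235 to 15065079 counts in WT skin, 8507461 to 10715197 in MT skin, 17197979 to 20276417 in WT flesh and 15893593 to 18258638 in MT flesh, so the skin values rest on fewer counts. No member had a count of 0 in any library, and 161 of the 185 had at least 10 counts in every library. The smallest sums over 3 libraries were 10 counts in MT skin and 22 counts in MT flesh. All 185 passed the filter on low counts of the tissue tests.

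Together the members made up a small and steady share of each library. Their summed level was 2636 ± 53.1 CPM in WT skin and 1376 ± 2.99 CPM in MT skin, and in flesh it was 4651 ± 87.7 CPM in WT and 2468 ± 46.6 CPM in MT (SD, n = 3 each). As a share of all counts this was 0.257 to 0.267% in the WT skin libraries, 0.137 to 0.138% in MT skin, 0.456 to 0.474% in WT flesh and 0.243 to 0.252% in MT flesh. A pair of genes, 03EG002210 and 08DG010750, held a sizeable part of the sum. Without them the sums were 2085 ± 53.6, 1026 ± 2.04, 3642 ± 45.9 and 1950 ± 29.9 CPM in the same order, so the order of the 4 groups was as before. In bulk tissue, fewer cells that use a gene and less of its RNA per cell cannot be told apart.

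Most members were lowly to moderately counted. WT skin means ran from 3.14 to 518 CPM with a median of 7.48, and MT skin means ran from 0.339 to 332 with a median of 3.31. In flesh the WT means ran from 3.01 to 993 CPM with a median of 9.92, and the MT means ran from 0.424 to 507 with a median of 5.54. A WT mean of 10 CPM or more was reached by 64 members in skin and by 92 in flesh, and one of 100 CPM or more by 2 in skin and by 4 in flesh. CPM is not divided by gene length here. The median listed length was 1765 bases in the members, from 228 to 6884, and 1995 bases in the genes meeting the level conditions. The median coefficient of variation over 3 replicates was higher in the MT groups than in the WT groups of the same tissue, at 21.7% against 16.8% in skin and 14.4% against 9.17% in flesh. Over the genes meeting the level conditions it was 16.6% in MT against 14.2% in WT skin, and 10.1% in MT against 10.5% in WT flesh. Since the rule asked for low MT values and no overlap, the spread within groups of the members is shaped by the choice.

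The WT over MT fold was usually modest. In skin its median was 1.97, with the middle 50% of the members between 1.69 and 2.57 and a highest value of 31.6. In flesh its median was 1.73, with the middle 50% between 1.61 and 1.96 and a highest value of 16.1. The fold was under 2 in both tissues for 81 members, at least 2 in skin alone for 66, at least 2 in flesh alone for 15 and at least 2 in both for 23. It was the larger in skin for 120 members and the larger in flesh for 65. Across members, which are not independent replicates and share the same 12 libraries, the log2 folds of the tissues had a Pearson correlation of 0.506, and of 0.135 among the 171 members whose flesh fold was under 3.

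**Figure D1:**
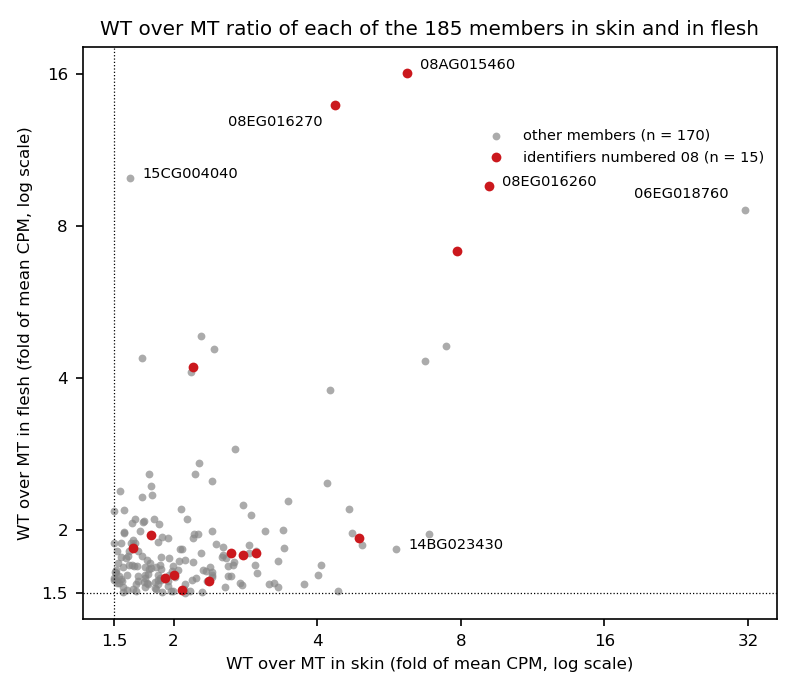
WT over MT ratio of group-mean CPM for each member in skin (horizontal, log scale) and in flesh (vertical, log scale); each point is 1 gene, red points carry the number 08, and dotted lines mark the limit of 1.5 that chose the members. Most points sit near the lower left corner, and 14 lie at or above a flesh fold of 3.80, with none between 2.89 and 3.80 when all libraries are used (1 to 4 when 1 flesh library is left out).

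The plot of the folds in both tissues shows 14 members at or above a flesh fold of 3.80 and the other members at or below 2.89. The empty range between them depended on single libraries: with any 1 flesh library left out, 1 to 4 members lay inside it. Without WT flesh 1, the flesh fold of 2 of the 14 was under 3, at 1.75 for 15CG004040 and 2.86 for the member at the upper edge. The groups were separated by a narrow margin in many genes. The lowest WT library stood a median of 1.35 times above the highest MT library in skin and 1.38 times in flesh, and by less than 1.1 times for 27 members in skin and for 19 in flesh. At the other end, the margin reached 1.5 times for 65 members in skin and for 56 in flesh.

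As a further description on the contrast the rule used, the quasi-likelihood test of edgeR (p adjusted by Benjamini-Hochberg, at 0.05) called 105 members lower in MT skin, against 3.21% of all 80351 genes tested, and 67 lower in MT flesh, against 1.21%. Nothing can be read from these shares, since the rule picked the genes on the same values. Calls in both tissues were made for 52 members, and 65 members were called in neither, although their MT and WT libraries did not overlap. The test scales by TMM, unlike the rule.

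The member with the highest skin fold was 06EG018760, a gene of 325 listed bases. It had 0.987, 15.4 and 15.8 CPM in the WT skin libraries 1 to 3 and 0.467, 0.199 and 0.353 CPM in MT skin. In flesh it had 37.7, 35.0 and 30.2 CPM in WT and 1.88, 7.89 and 2.20 CPM in MT. WT skin 1 stood far below the other WT skin libraries, at 10 counts against 232 and 152, and MT skin held only 5, 2 and 3 counts. The WT over MT fold was 31.6 in skin (24.1 to 46.0 when any 1 library was left out) and 8.60 in flesh (16.8 without MT flesh 2). The log2 difference of MT from WT was -4.98 ± 1.31 in skin and -3.10 ± 0.64 in flesh (SE of the log2 values, n = 3 per group). The gene stands apart in size, and its skin value has a wide error.

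The next 3 genes of the naming rule all carried the number 08, and they lay in the last part of that block. The first, 08EG016260, had 5.13, 4.78 and 3.74 CPM in WT skin and 0.467, 0.199 and 0.823 CPM in MT skin, and in flesh 23.3, 24.5 and 19.1 CPM in WT against 1.21, 2.41 and 3.33 CPM in MT. WT libraries were all well above MT libraries in each tissue, although MT skin rests on 5, 2 and 7 counts. The folds were 9.17 in skin and 9.60 in flesh, the closest to equal of the 4 leading members.

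The highest flesh fold belonged to 08AG015460. Its WT skin libraries held 16.8, 22.8 and 21.3 CPM and its MT skin libraries 4.48, 2.18 and 3.17 CPM. In flesh the WT libraries held 49.4, 53.5 and 54.3 CPM and the MT libraries 3.37, 2.25 and 4.15 CPM. WT flesh was thus well above WT skin, while the MT libraries of both tissues covered the same range. The WT over MT fold was 6.19 in skin and 16.1 in flesh (13.9 to 18.7 when any 1 library was left out), or -2.63 ± 0.32 and -4.01 ± 0.26 on the log2 scale.

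A like pattern was seen in 08EG016270, whose identifier directly follows that of 08EG016260 (running numbers 10 apart). It had 22.8, 27.4 and 28.9 CPM in WT skin and 8.12, 3.77 and 6.23 CPM in MT skin. In flesh it had 75.1, 71.8 and 68.2 CPM in WT and 4.30, 6.08 and 5.10 CPM in MT. Again WT flesh was the highest group and the MT groups overlapped each other. The folds were 4.36 in skin and 13.9 in flesh. Over the 12 libraries, 08EG016270 was the member most like 08AG015460 (Pearson correlation of log2 CPM 0.986). The next most like each of them was 04BG014240 (0.957 and 0.958), which had 4.24, 8.43 and 9.77 CPM in WT skin, 3.92, 2.48 and 3.41 CPM in MT skin, and in flesh 17.8, 16.2 and 15.7 CPM in WT against 3.26, 3.01 and 3.96 CPM in MT. Its skin groups came close, with WT skin 1 only just above MT skin 1.

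The members most like 08EG016260 were also numbered 08. The first was 08FG021360 (correlation 0.967), with 9.87, 12.9 and 7.28 CPM in WT skin, 1.21, 1.09 and 1.53 in MT skin, 17.8, 28.4 and 21.6 in WT flesh against 2.21, 3.01 and 4.28 in MT flesh. Its WT over MT fold was 7.85 in skin and 7.14 in flesh, so nearly equal in the tissues. The second was 08DG016600 (correlation 0.952), with 13.4, 16.7 and 16.2 CPM in WT skin, 6.35, 5.76 and 8.93 in MT skin, 57.4, 49.3 and 41.0 in WT flesh against 12.1, 12.8 and 10.1 in MT flesh. Its fold was smaller in skin, 2.20, than in flesh, 4.22. These 5 genes with the number 08 lay between 82.0 and 90.8% of the ranked identifiers of their letters, and the letters were A, D, E, E and F. For 06EG018760 the likeness was lower, at 0.921 with 01FG026550 and 0.913 with 08DG001440. The other members with a fold of at least 3 in both tissues lay in 03F, 06C and 09E, with folds of 7.46, 6.73 and 4.25 in skin and of 4.64, 4.32 and 3.80 in flesh. A correlation over libraries of 4 groups reflects the group differences that chose the genes.

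**Figure D2:**
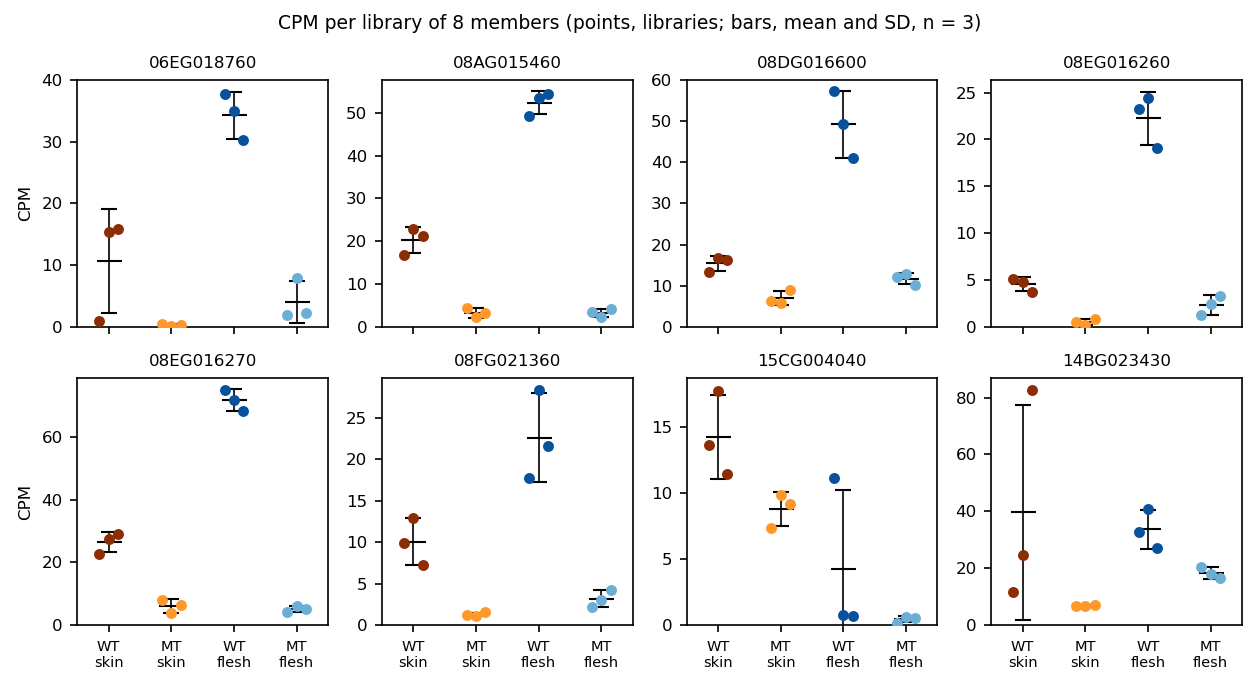
CPM in each library (points) with the mean and SD of 3 replicates (bars) for 8 members, each panel on its own scale from 0. In the first 6 panels the MT points lie in the lower part of the panel in both tissues, and some WT skin points do too. In 15CG004040 the WT flesh bar rests on 1 high library, and in 14BG023430 the WT skin bar does.

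Some folds rested on 1 library. Leaving out 1 library moved the fold by more than 1.5 times for 11 members in skin and for 7 in flesh. It brought the fold under 1.5 for 44 members in skin and for 55 in flesh, and 92 members met the whole rule whichever of the 12 libraries was left out. A pair of genes chosen here after their values were seen shows this. In WT flesh 15CG004040 had 11.2, 0.789 and 0.694 CPM, from 192, 16 and 13 counts, against 0.166, 0.602 and 0.503 CPM in MT flesh. Its flesh fold of 9.95 became 1.75 without WT flesh 1, and its skin fold of 1.62 became 1.42 without WT skin 2. In WT skin 14BG023430 had 11.7, 24.5 and 82.7 CPM against 6.53, 6.65 and 7.17 CPM in MT skin, and its skin fold of 5.85 became 2.67 without WT skin 3. In each case a single WT library carried the size of the difference.

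The difference between skin and flesh was tested with edgeR within each line. In WT the rule did not compare skin with flesh. The same WT values did enter its floors, folds and condition on overlap. How far the choice shaped the WT difference was not tested. In MT the difference between skin and flesh is the WT one plus the differences between the lines that chose the members. The floor on the MT skin counts also enters it. The MT values are therefore a description. In WT, 39 members (21.1%) were higher in skin and 65 (35.1%) were lower in skin, while 81 were not called. Among all genes tested, 26.3% were higher and 24.1% lower in WT skin, and among the genes meeting the level conditions 26.6% and 28.6%. In MT, 37 members (20%) were higher and 75 (40.5%) lower in skin, against 25.5% and 25.2% of all genes tested and 27.9% and 29.5% of those meeting the level conditions. The members thus leaned towards flesh in both lines, with a median log2 difference of skin from flesh of -0.12 in WT and -0.36 in MT. No test of this lean was run, as members are not replicates. The lean in MT also carries the folds that chose the members, which were larger in skin for 120 and in flesh for 65.

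By library totals the members and all genes moved towards flesh together. Scaled so, edgeR called 29 members higher and 80 lower in WT skin and 31 higher and 91 lower in MT skin, or 26.6% higher among those called in WT and 25.4% in MT, instead of 37.5% and 33%. Among all genes called, the share higher in skin went from 52.2 to 39.5% in WT and from 50.4 to 39.8% in MT. The median of all genes tested moved from -0.02 to -0.36 in WT and from -0.06 to -0.34 in MT, and the median of the members from -0.12 to -0.45 and from -0.36 to -0.64. Among the 106 members that also met the rule with TMM, an alternative added after seeing the data, 20 were higher and 42 lower in WT skin, and 20 were higher and 50 lower in MT skin. By mean CPM, WT flesh was at least 4 times WT skin in 33 members (17.8%), against 4.55% of the genes meeting the level conditions, and WT skin at least 4 times WT flesh in 10 members (5.41%), against 4.12%.

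**Figure D3:**
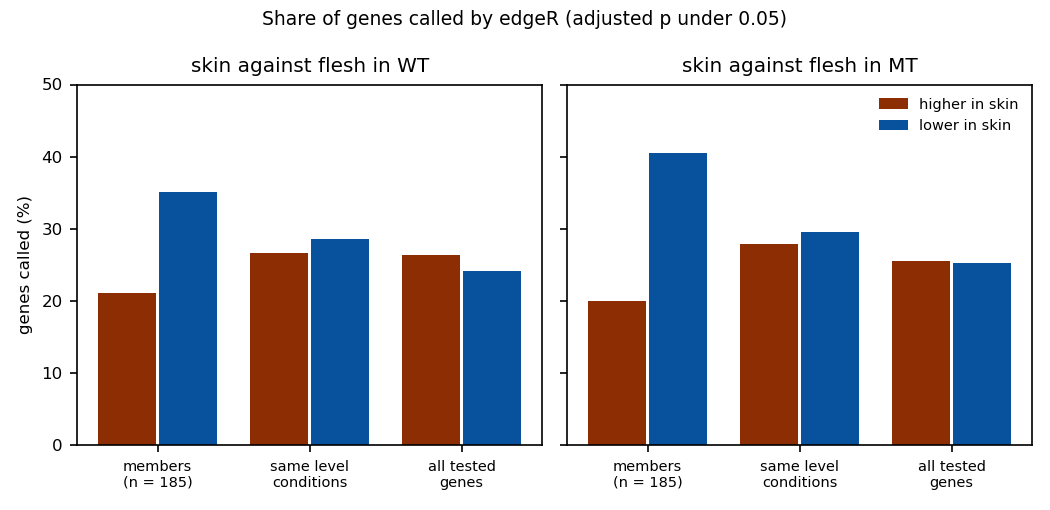
Share of genes that edgeR called higher (brown) or lower (blue) in skin than in flesh, in WT (left) and in MT (right), for the members, for the genes outside 12 that met the same conditions on level, and for all genes tested. In the members the blue bars stand at 35.1 and 40.5% and the brown bars at 21.1 and 20%.

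Most members called between the tissues were called in the same direction in both lines. Called higher in skin in both lines were 30 members, called lower in skin in both were 60, and 59 were called in neither. No member was called in opposite directions. Joint calls were not counted over all genes tested, so these counts only describe the members. Another 9 were called higher and 5 lower in skin in WT alone, and 7 higher and 15 lower in MT alone. Whether the tissue difference itself changed between the lines was not tested, because that is made of the same contrasts that chose the members. Members that were higher in WT skin had median WT over MT folds of 1.79 in skin and 1.71 in flesh, and those that were lower in WT skin had 2.10 and 1.71. The 81 not called in WT had 2.07 and 1.77.

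The strongest skin members were 03EG002210 and 13BG013060. In skin 03EG002210 had 523, 516 and 514 CPM in WT and 337, 327 and 333 in MT, and in flesh 15.1, 15.1 and 17.5 in WT and 8.61, 12.2 and 9.25 in MT. The skin libraries were far above the flesh libraries in each line, with tight replicates. Skin was higher than flesh by 5.36 ± 0.11 on the log2 scale in WT (adjusted p = 2.2e-14, the quasi-likelihood test of edgeR, adjusted by Benjamini-Hochberg) and by 5.33 ± 0.11 in MT (adjusted p = 3.4e-14, the same edgeR test). Its WT over MT folds of 1.56 and 1.59 were near the limit of the rule, and the flesh fold was 1.48 without MT flesh 1.

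In 13BG013060 the WT skin libraries held 119, 116 and 110 CPM, the MT skin libraries 62.9, 58.2 and 71.9, the WT flesh libraries 3.78, 3.45 and 3.63 and the MT flesh libraries 2.48, 1.70 and 2.14. All skin libraries were many times above all flesh libraries. Skin was higher by 5.32 ± 0.12 on the log2 scale in WT (adjusted p = 8.6e-14, edgeR) and by 5.20 ± 0.13 in MT (adjusted p = 2.4e-13, edgeR). The WT over MT fold was 1.79 in skin and 1.72 in flesh. Per 1000 bases of gene, the WT skin level of 03EG002210 was 336 CPM and that of 13BG013060 was 95.8 CPM.

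On the flesh side, 08DG010750 had flesh levels of 1033, 998 and 947 CPM in WT against 497, 526 and 500 CPM in MT, with 27.3, 39.8 and 31.0 CPM in WT skin and 17.2, 17.6 and 19.98 CPM in MT skin. Flesh libraries were far above skin libraries in each line. Skin was lower than flesh by a log2 difference of -4.58 ± 0.11 in WT (adjusted p = 2.1e-13, edgeR) and of -4.52 ± 0.12 in MT (adjusted p = 3.7e-13, edgeR). Its WT over MT fold was 1.79 in skin and 1.96 in flesh.

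Another flesh gene, 03FG008400, had flesh levels of 285, 291 and 290 CPM in WT against 169, 169 and 172 CPM in MT, and its skin libraries held 47.9, 51.5 and 52.4 CPM in WT and 28.0, 28.7 and 35.0 CPM in MT. The flesh replicates were closely grouped, and the lines were well apart in each tissue. Per 1000 bases of gene, the WT flesh level was 778 CPM for 08DG010750 and 240 CPM for 03FG008400. The log2 difference of skin from flesh was -2.18 in WT (adjusted p = 8.9e-12, edgeR) and -2.20 in MT (adjusted p = 1.2e-11, edgeR) for 03FG008400.

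In 08EG003790 the flesh libraries held 121, 125 and 119 CPM in WT and 69.2, 65.3 and 68.0 CPM in MT, against 7.40, 9.16 and 6.44 CPM in WT skin and 2.05, 3.48 and 3.17 CPM in MT skin. Flesh was the higher tissue in both lines, by a log2 difference of skin from flesh of -3.63 ± 0.13 in WT (adjusted p = 1.5e-11, edgeR) and of -4.27 ± 0.16 in MT (adjusted p = 1.4e-11, edgeR). Its WT over MT fold was 2.64 in skin and 1.81 in flesh.

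The leading members with the number 08 were also tested between the tissues. In WT these 3 were lower in skin, with log2 differences of -1.95 ± 0.33 for 08EG016260 (adjusted p = 0.00017, edgeR), of -1.03 ± 0.21 for 08AG015460 (adjusted p = 0.00075, edgeR) and of -1.10 ± 0.18 for 08EG016270 (adjusted p = 0.00014, edgeR). In MT the difference was -1.97 ± 0.46 for 08EG016260 (adjusted p = 0.0025, edgeR). The other two did not pass the test in MT, with values of 0.30 ± 0.27 for 08AG015460 (adjusted p = 0.37, edgeR; -0.02 without MT skin 1) and 0.51 ± 0.22 for 08EG016270 (adjusted p = 0.072, edgeR; 0.75 and adjusted p = 0.0049 without MT skin 2). For 06EG018760 the difference of skin from flesh was -1.32 in WT (adjusted p = 0.091, edgeR) and -3.25 ± 1.05 in MT (adjusted p = 0.019, edgeR). That MT call was lost without MT flesh 2 (-2.29, adjusted p = 0.095, edgeR) and without any 1 of the MT skin libraries (adjusted p 0.052 to 0.073, edgeR). All these genes were named for their WT over MT folds, which enter the MT difference between the tissues. The MT values and calls here are therefore a description.

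The members were spread over all numbers other than 12, with 184 in numbered blocks and 1 outside them. As a share of the genes meeting the level conditions, they ranged from 0.306% (6 genes) in number 02 to 1.24% (19 genes) in number 14, with 1.17% (15 genes) in number 08 and 1.01% (23 genes) in number 03. Another member lay within a distance of 1000 in running number for 40 of the 184 (21.7%). Among the 193 placed genes of the mirrored rule this was 56 (29%), and among the 114 genes numbered 12 that met the rule on levels and folds it was 94 (82.5%). Those 114 lie on the same number and the members on many, so these shares also depend on how crowded each set is. No equally crowded set was compared. The genes numbered 12 were also a larger share of those meeting the level conditions, 5.11%, and 17 of them (14.9%) had a fold of at least 3 in both tissues, against 8 members (4.32%). These shares are a description, and no test of the difference was run.

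**Figure D4:**
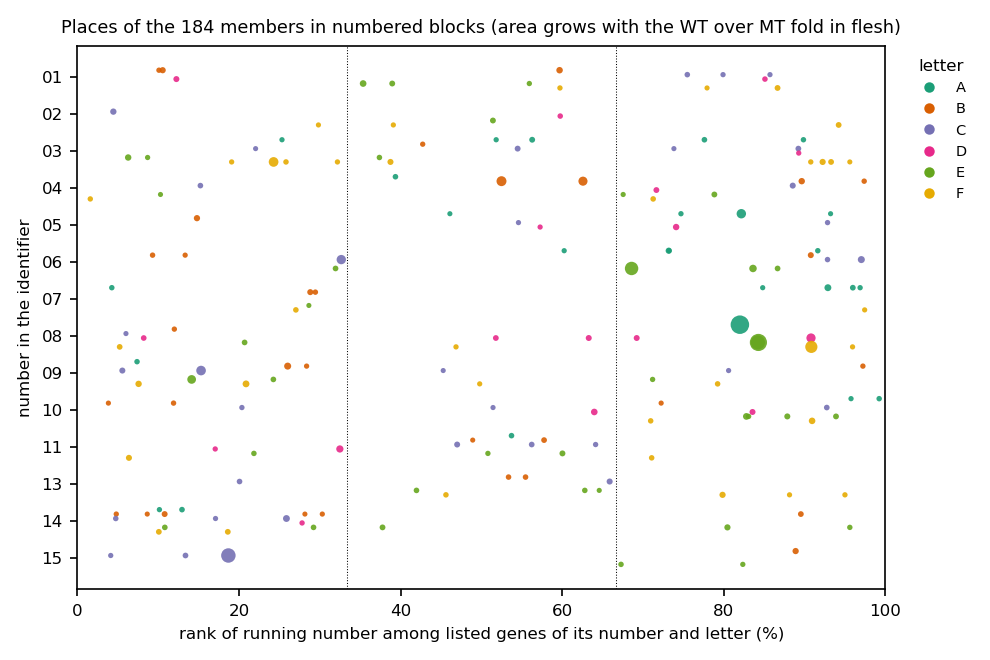
Place of each member along the ranked identifiers of its number and letter (horizontal, percent of the listed genes of that number and letter) by number (vertical), coloured by letter, with the area growing with the WT over MT fold in flesh. Number 14 has 15 of its 19 points left of the first dotted line, which cuts off the first of 3 equal parts of the ranks, and the large points of number 08 lie between 82.0 and 90.8%.

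In a few blocks the members were unevenly placed. In number 14, 15 of 19 members (78.9%) lay in the first of 3 equal parts of the ranked identifiers, where 42.2% of the genes meeting the level conditions lay. They came from all 6 letters and spanned running numbers 1020 to 7490, with WT over MT folds of 1.52 to 4.20 in skin and 1.51 to 2.48 in flesh. In number 10, 11 of 16 (68.8%) lay in the last part against 44.2%, and in number 08, 7 of 15 (46.7%) against 19.6%. With TMM, an alternative added after seeing the data, the counts were 7 of 11, 7 of 10 and 5 of 11. These blocks were singled out after their counts were seen, and no test was made.

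Genes around the members that were not members themselves were also looked at. Leaving the members out took genes lower in both tissues from this set, so the rule also shaped it. Among the 1806 tested genes that were not members and lay within 5 places of one, edgeR called 67 (3.71%) lower in MT skin and 24 (1.33%) lower in MT flesh. The shares over all genes tested were 3.21% and 1.21%, and without the members and the genes numbered 12, a baseline added after seeing the data, they were 2.86% and 0.962%. The neighbours' shares lay somewhat above these in both tissues with all libraries, and no test of the difference was run. In flesh this turned round against all genes tested when certain libraries were left out. The shares were 0.721% against 0.787% without WT flesh 1, and 0.554% against 0.636% without MT flesh 1. Those neighbours' shares rested on 13 and 10 genes called. With any other flesh library left out the neighbours' share stayed above. All genes tested include the members and the genes numbered 12, and the baseline without them was not computed with libraries left out. The neighbours' median log2 difference of MT from WT was -0.02 in skin and 0.00 in flesh. In the first part of number 14 the 634 tested genes that met the level conditions and were not members had medians of 0.03 and -0.04, with 2.68% and 1.89% called lower.

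Near 08AG015460, 08EG016260 and 08EG016270 the medians were lower in skin than the -0.02 over all neighbours, but not near 08FG021360. The median skin difference of MT from WT over the 9 or 10 neighbours of each was -0.40 for 08AG015460, -0.55 for 08EG016260 and -0.54 for 08EG016270, whose neighbours are largely the same genes, and -0.01 for 08FG021360. In flesh these medians were 0.10, 0.25, 0.06 and -0.12. At most 1 neighbour of each of the 4 was called lower in skin and 0 in flesh.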

How the data were processed

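The authors deposited raw counts per gene, with a gene length, for 12 libraries (3 per group) in 1 table, per the file headers. The submitters' processing notes name HISAT2 2.0.5, featureCounts and DESeq2 1.40.2, without saying what each did. The genome build, the strand option and how reads matching several copies were handled were not given in the sources used here. The kit removed ribosomal RNA and enriched poly(A) RNA, per the labels' protocols.

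The members and the lists were chosen with earlier results of these data known. CPM by library totals served the rule. Tests used edgeR 4.0.16 (R 4.3.3): quasi-likelihood fit on the counts of all 4 groups, TMM, filterByExpr with a minimum count of 10 (80351 genes tested) and Benjamini-Hochberg adjustment at 0.05. The fit was tested on simulated data. SE of log2 folds by the rule used a pseudocount of 0.1 CPM, as did the correlations of log2 CPM. Neighbours are tested genes within 5 places of a member by running number. Alternatives were DESeq2 1.42.0, other scalings, filters and thresholds, leaving out each library, and a replicate block.

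Named genes were the 2 members with the largest WT over MT fold in each tissue, the 2 with the highest WT mean in each tissue, the 2 with the largest called tissue difference in each direction and line, and the 2 members most like each leading one. Others are said to be chosen after seeing their values. No sequence is shown, since none could be matched to these identifiers.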

Additional observations from a re-analysis of the deposited data

How the results depend on the processing

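The number of genes meeting the rule was 185 and moved to 107 with TMM-scaled library sizes. It was 23 with a fold of at least 2 and 40 with a floor of 10 CPM. It was 361 with a floor of 1 CPM and 429 without the condition on overlap. With 1 library left out it was 198 to 237, with 162 to 175 of the 185 among them. Fewer libraries then had to be kept apart, and the means behind the other conditions changed too. Members called between skin and flesh were 95 to 101 in WT (104 with all libraries) and 101 to 106 in MT (112) with 1 library left out. With 1 library left out, 84714 to 85825 genes were tested in WT. Of these, 19277 to 20235 were higher and 17618 to 18065 lower in skin. In MT, 84937 to 85786 genes were tested, with 18463 to 19834 higher and 18316 to 19602 lower in skin. DESeq2 called 45 members higher and 69 lower in WT skin and 39 and 74 in MT skin. Of 80008 genes it called 21902 higher and 20294 lower in WT skin, and 21458 and 20829 in MT skin. The tissue differences of the 9 genes first named by the rule kept their direction and call under every alternative run, except the MT values of 08AG015460 and 08EG016270 and both of 06EG018760. The MT value of 08AG015460, not called, ran from -0.02 (without MT skin 1) to 0.52 with 1 library left out; the cause was not tested. That of 08EG016270 was called with DESeq2 (0.53, adjusted p = 0.036) and without MT skin 2. The WT value of 06EG018760 was called with library totals (-1.66, adjusted p = 0.034), with no filter on low counts (-1.42, adjusted p = 0.00089) and with a replicate block (-1.66, adjusted p = 0.04). The genotype folds of the 9 kept their direction in both tissues. Members called lower in MT were 105 in skin and 67 in flesh, against 3.21% and 1.21% of all genes tested. They were 63 and 85 when only the 2 groups compared were fitted (all genes 3.09% and 2.69%). With DESeq2 they were 135 and 97 (all genes 5.05% and 2.28%). With 1 library left out they were at least 67 and 35 (all genes 1.96 to 2.41% and 0.597 to 0.787%). The rule picked the members on this contrast, so nothing can be read from these counts.

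Neighbours called lower in MT skin were 67, and 122 within 10 places (3.41% of more genes); with 1 library left out they were 43 to 47, with fewer calls over all genes too. In flesh the 24 became 45 within 10 places, 41 with library totals (2.27%, against 2.13% of all genes tested), 55 with only the 2 groups compared (3.49% against 2.69%), 53 with DESeq2 (2.94% against 2.28%) and 10 to 15 with 1 library left out. The neighbours' share in flesh fell below that of all genes tested only without WT flesh 1 or MT flesh 1. With no filter on low counts, 78 neighbours were called lower in skin (4.32%, against 2.4% of all genes tested). In flesh 35 were (1.94% against 1.15%). The larger set of all genes tested there holds many of low count. All genes called lower in flesh were 969, and 1708 with library totals.

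Deviations of same-numbered libraries correlated between -0.0146 and 0.0146 over 12 pairs, so the counts showed no pairing. That check cannot tell whether same-numbered libraries came from the same plants. With a replicate block, 106 members were called between tissues in WT (all genes 20290 higher, 18737 lower) and 109 in MT (19659, 19555). Neighbours called lower were 48 in skin (2.66%, all genes 2.46%) and 18 in flesh (0.997%, 0.948%). With 3 libraries per group, low counts in MT skin limit the largest folds, and values of near-identical copies stay uncertain.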

Other observations

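By letter, members made up 0.541% of the genes meeting the level conditions in A (26 genes), 0.674% in B (32), 0.785% in C (34), 0.395% in D (17), 0.773% in E (38) and 0.773% in F (37). Members with adjacent running numbers occurred in 06A, at 21790 and 21800, besides the pair in 08E; their WT over MT folds were 1.66 and 1.83 in skin and 2.10 and 1.54 in flesh. A run of 4 members in 03F lay between 31720 and 33270, with skin folds of 1.65 to 4.43 and flesh folds of 1.52 to 2.06. These were singled out after their values were seen.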
